A study of Caenorhabditis elegans with 2 samples.

Results

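MicroRNAs are short RNAs that silence messenger RNAs. They are cut from a hairpin within a longer transcript, first by a nuclear enzyme complex and then by Dicer, and an Argonaute protein carries the mature strand to its targets. Bases 2 to 8 of the mature strand, the seed, pair with the target, so microRNAs with the same seed form a family. In Caenorhabditis elegans the families of mir-35 and mir-51 are needed for embryos to survive, and lin-4 and let-7 time the larval stages. KLF-2 is a Krüppel-like zinc-finger protein, of a group that recognises GC-rich and CACCC boxes in DNA.

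All 261 nuclear genes of biotype miRNA in the Ensembl gene models were taken, out of 46890 nuclear genes in all. ChIP-seq, which sequences the DNA recovered with a protein, was done for KLF-2 on 1 group of 2 biological replicates, both whole mid-stage embryos of strain RW12310 collected by bleaching at an age of 1.5 hours. The strain carries 1 allele, st12310, in which klf-2 is tagged with TY1, EGFP and 3xFLAG by CRISPR. Chromatin was precipitated through the GFP part of the tag. The signal comes from all cells of the embryo, so a site used in few cells and a site used weakly in many cannot be told apart. No second condition and no untagged strain was analysed here.

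Each gene was scored by the peak with the highest signal value whose summit lay from 1000 bp upstream of the gene's 5′ end to 100 bp past its 3′ end. The peaks came from the authors' ranked list of both replicates, which held 111583 peaks with a median signal value of 23.8. The signal value is the one the authors deposited for each peak and is given without a unit. The list also gives the irreproducible discovery rate (IDR), which is low where a peak ranks high in both replicates. A peak was called reproducible at a −log10 global IDR of 2 or more, that is an IDR of 0.01 or less, and 1208 peaks passed. Of these, 1032 are the authors' conservative thresholded list.

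KLF-2 had a reproducible peak at 11 of the 261 microRNA genes (4.21%, exact 95% binomial interval 2.12 to 7.42%), and the same rule called 3.51% of all nuclear genes. The share is near that background and is not a result about microRNA genes as a class. The 11 genes rest on 10 peaks, because mir-86 and mir-8211 share 1. They are mir-51, mir-52, mir-249, mir-354, mir-5549, mir-72, mir-1, mir-260, mir-86, mir-8211 and mir-58.1 (mir-58a in Ensembl). The highest 3, at mir-51, mir-249 and mir-52, had signal values of 322, 277 and 221, and the other 7 peaks lay between 70.6 and 113.

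The mature strands show which called genes belong to 1 family. They were read from the WBcel235 genome at the annotated positions, 5′ to 3′, with the seed in capitals. The 6 genes of the mir-51 family share the seed ACCCGUA, in mir-51, mir-52 and mir-53 on the 5′ arm of the hairpin and in mir-54, mir-55 and mir-56 on the 3′ arm.
mir-51: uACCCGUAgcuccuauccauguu
mir-52: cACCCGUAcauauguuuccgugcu
mir-53: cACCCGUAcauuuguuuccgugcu
mir-54: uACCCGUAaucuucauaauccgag
mir-55: uACCCGUAuaaguuucugcugag
mir-56: uACCCGUAauguuuccgcugag
The 3 other called genes shown are mir-72, whose seed GGCAAGA occurs in 6 genes, mir-86, whose seed AAGUGAA is shared with mir-785, and mir-58.1. The seed of mir-58.1, GAGAUCG, occurs in 1 gene, although mir-58.1 is related to bantam of flies.
mir-72: aGGCAAGAuguuggcauagcuga
mir-86: uAAGUGAAugcuuugccacaguc
mir-785: uAAGUGAAuuguuuuguguaga
mir-58.1: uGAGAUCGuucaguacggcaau
Of the seeds printed here, ACCCGUA is the one carried by more than 1 called gene.

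The DNA under the summits is shown for 5 of the 10 peaks: 3 that hold a sequence searched for, 1 made of a repeat (mir-249) and 1 past the end of its gene (mir-58.1). Each sequence has 101 bases centred on the summit, in WBcel235, on the strand of the microRNA gene and 5′ to 3′. Capitals mark the sequences searched for on both strands: CCACCC and CCGCCC, boxes of Krüppel-like proteins, and GGTTCG, the start of the B box inside tRNA genes. The shorter CACCC was not searched for and is not marked where it occurs, as in the sequence of mir-51.
mir-51, chrIV:11026152-11026252, minus strand: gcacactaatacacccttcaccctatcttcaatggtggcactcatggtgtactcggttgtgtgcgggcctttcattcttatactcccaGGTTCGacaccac
mir-52, chrIV:14033996-14034096, plus strand: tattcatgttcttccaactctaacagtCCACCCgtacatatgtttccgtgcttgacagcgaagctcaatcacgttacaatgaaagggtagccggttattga
mir-249, chrX:3007410-3007510, minus strand: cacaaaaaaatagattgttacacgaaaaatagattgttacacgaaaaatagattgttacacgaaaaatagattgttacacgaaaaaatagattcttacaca
mir-72, chrII:2452599-2452699, plus strand: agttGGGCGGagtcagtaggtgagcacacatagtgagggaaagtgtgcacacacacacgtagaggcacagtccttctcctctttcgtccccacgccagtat
mir-58.1, chrIV:3233377-3233477, plus strand: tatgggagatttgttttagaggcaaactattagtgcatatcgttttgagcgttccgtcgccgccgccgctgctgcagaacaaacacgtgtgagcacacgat

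The peak of mir-51 ranked 93 of 111583 by signal value, and its −log10 global IDR was 3.93. The gene lies on chromosome IV from 11026013 to 11026112 on the minus strand, outside protein-coding genes. The peak ran from 11026089 to 11026294, with its summit 90 bp upstream of the 5′ end. Replicate 1 gave it a signal value of 155 (rank 91 of 63024) and replicate 2 a value of 156 (rank 107 of 50044), and both thresholded lists of single replicates held it. The summit was also inside F36H1.17, a gene of class ncRNA with 89 bases on the same strand that lies 19 bp upstream of mir-51. GGTTCG lay 38 to 43 bp from the summit in the sequence printed above, on the side of mir-51 and within F36H1.17. GGTTCG was within 50 bp of the summit in 132 of all 1208 reproducible peaks (10.9%). Occupancy of F36H1.17 and of the region upstream of mir-51 cannot be told apart here. The nearest start of a protein-coding transcript, that of hrg-5, was 2983 bp away.

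The peak of mir-52 lay over the microRNA itself. It ranked 169, with a −log10 global IDR of 3.65, and ran for 114 bp from 14034023 to 14034136 on chromosome IV. Its summit was 38 bp into the gene (14034008 to 14034107, plus strand) and inside the annotated mature strand on the 5′ arm. Replicate 1 gave a signal value of 105 (rank 189) and replicate 2 a value of 135 (rank 139), and both had it in their thresholded lists. CCACCC lay 18 to 23 bp upstream of the summit, and 5 of its 6 bases are the first bases of the mature strand. Part of the box is thus part of the seed. An antisense gene of class ncRNA with 149 bases also covered the summit, and another on the same strand ended 4 bp before mir-52. The next coding start was 9734 bp away.

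The other 4 genes of the mir-51 family had no reproducible peak. The hairpin of mir-53 holds CCACCC at the same place as that of mir-52, 1 base before the mature strand, and its best peak ranked 6051 with a signal value of 52.6 and a −log10 global IDR of 0.508. mir-51 and mir-53 lie in the same part of chromosome IV, and the peak of mir-51 was outside the window of mir-53. On chromosome X, mir-54, mir-55 and mir-56 shared a peak of signal value 57.2 and −log10 global IDR 0.687. CCACCC was in 2 of the 6 hairpins of the family, and in 14 of all 261 microRNA genes (5.36%).

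**Figure D1:**
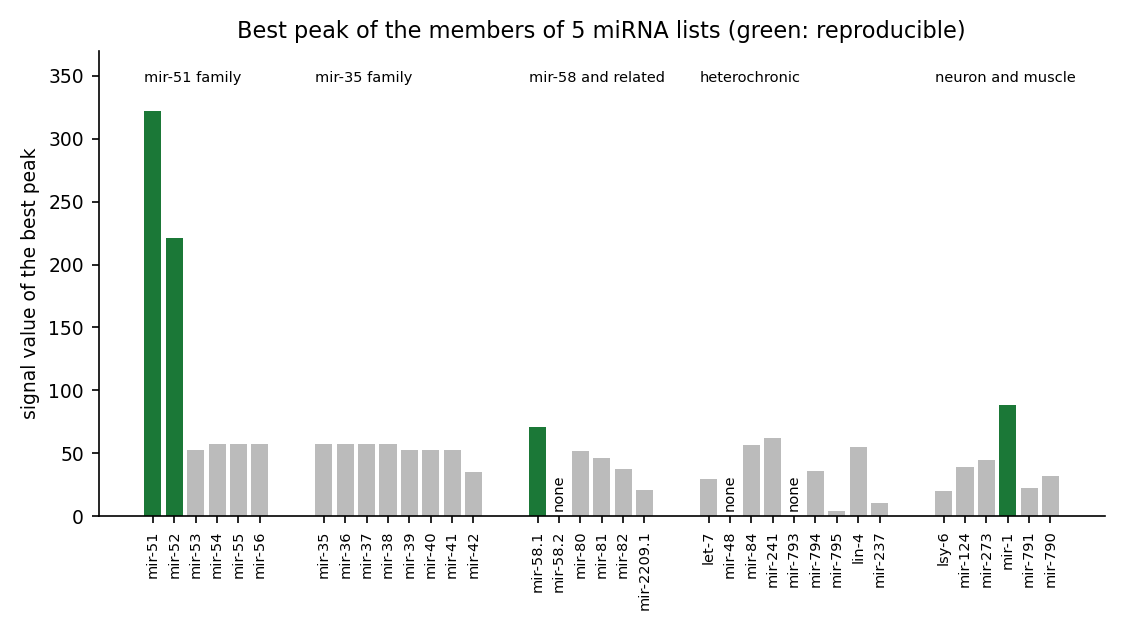
Signal value of the best peak (vertical axis, no unit) for each member of 5 lists of microRNA genes, with green bars for reproducible peaks and "none" for genes with no ranked peak in the window. The bars of mir-51 (322) and mir-52 (221) stand above those of the other 4 members of their family (52.6 to 57.2); genes of a cluster that share a peak have bars of equal height.

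The peak in the window of mir-249 was the second highest by signal value among microRNA genes, and the authors' thresholded lists do not hold it. Its summit was 924 bp upstream of the gene (chromosome X, 3006440 to 3006536, minus strand), near the far edge of the window, and the peak ran from 3007312 to 3007607. Replicate 1 gave a signal value of 127 (rank 141) and replicate 2 a value of 174 (rank 92), and the −log10 global IDR was 3.85. The 101 bases under it repeat themselves every 19 bases, with 79.3% of bases equal at that distance. The 7 other sequences read reached at most 41.9% at their best distance. Those at mir-354 and mir-1 were not read for this measure. The G and C content under the mir-249 peak was 25.7%, the lowest of the 10 peaks, whose median was 49.0%. The nuclear genome has 35.4%. All stretches of 36 bases in the 101 bases under this peak occur again in the genome. It was the only one of the 10 peaks with such a stretch, against 571 of the 1198 other reproducible peaks (47.7%). Of the 176 reproducible peaks that are not in the conservative list, 170 (96.6%) held a repeated stretch of 36 bases, and of the 1032 in it 402 did (39.0%). How reads from repeated sequence were placed is not given in the sources used here. The part of the repeat in this peak was not tested.

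At mir-354 and mir-5549 the peak was also at the promoter of protein-coding genes. That of mir-354 (signal value 113, −log10 global IDR 2.57) lay 849 bp upstream of the microRNA on chromosome I. The microRNA overlaps an exon or the edge of rps-20, a gene for a ribosomal protein of the small subunit. The summit was 237 bp upstream of the start of rps-20 and 160 bp upstream of that of ekl-4, which runs the other way. Replicate 1 gave 38.7 (rank 1997) and replicate 2 gave 73.4 (rank 348), and only replicate 2 had it in its thresholded list. The peak of mir-5549 (signal value 101, −log10 global IDR 2.71) lay 19 bp upstream of the microRNA on chromosome III (6971976 to 6972085). Its summit was 149 bp upstream of rfc-4, a gene for a subunit of the clamp loader of DNA replication, and 392 bp upstream of eef-1A.1, a gene for translation elongation factor 1 alpha. Its replicate values were 46.2 and 52.4, and neither single-replicate thresholded list held it. At both places a summit for the coding genes and 1 for the microRNA cannot be told apart.

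The remaining intergenic genes had their summits upstream and away from coding starts. mir-72, on chromosome II from 2452838 to 2452936, had a peak 189 bp upstream, with a signal value of 94.4 and a −log10 global IDR of 2.49. GGGCGG, which is CCGCCC on the other strand, lay 41 to 46 bp upstream of its summit. Replicate 1 gave 53.2 (rank 630) and held it in its thresholded list, and replicate 2 gave 35.99 (rank 1792) and did not. mir-1, the conserved microRNA of muscle, had a peak 364 bp upstream on chromosome I, with a signal value of 88.7 and a −log10 global IDR of 2.33. The summit was inside T09B4.17, a gene of class ncRNA on the opposite strand. Replicate 1 gave 36.4 (rank 2662) and replicate 2 gave 50.6 (rank 633). mir-260, on chromosome II, had a peak 381 bp upstream with a signal value of 85.3 and replicate values of 38.5 and 44.0. Within 100 bp of that summit were F39E9.15, a gene of class ncRNA with 19 bases on the same strand, and a pseudogene on the opposite strand. For mir-1 and mir-260, neither thresholded list of a single replicate held the peak.

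The last 2 peaks lay within protein-coding genes and close to the threshold. mir-86 lies in an intron of Y56A3A.7 on chromosome III, and mir-8211 overlaps an exon of the same gene, on the same strand. They shared a peak from 11936808 to 11937103 with a signal value of 74.8 and a −log10 global IDR of 2.02. The summit was 24 bp into mir-8211 and 222 bp upstream of mir-86. Replicate 1 gave 33.9 (rank 3785) and replicate 2 gave 40.03 (rank 1164), and the thresholded list of replicate 2 alone held it. mir-58.1, in an intron of phkb-1 (Y67D8A.2 in Ensembl) on chromosome IV, had its summit 77 bp past the 3′ end of the microRNA. Its signal value was 70.6 and its −log10 global IDR 2.23, with replicate values of 46.7 and 32.8. Neither single-replicate thresholded list held the peak. Within 100 bp of the summit was also Y67D8A.7, a gene of class ncRNA on the same strand.

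**Figure D2:**
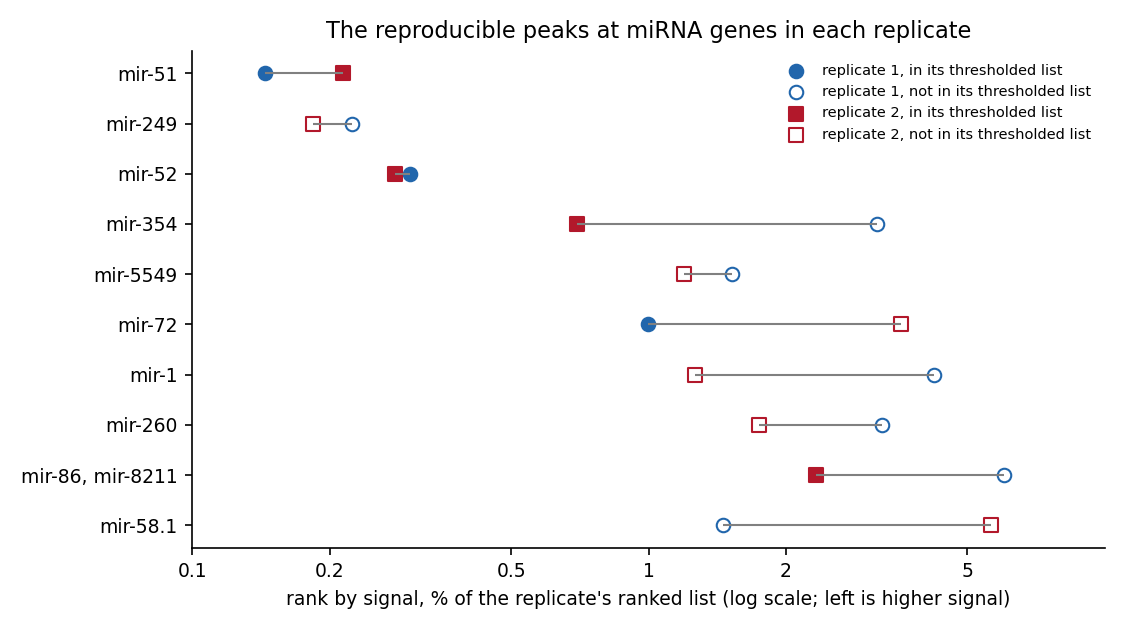
Rank by signal of the 10 reproducible peaks, as a percentage of each replicate's own ranked list (horizontal axis, log scale, left is higher), with filled symbols where that replicate's thresholded list holds the peak. mir-51, mir-249 and mir-52 lie in the top 0.300% of both lists, and the symbols are filled in both replicates for mir-51 and mir-52.

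Both single-replicate thresholded lists held 2 of the 10 peaks (mir-51 and mir-52). That of replicate 1 alone held 1, that of replicate 2 alone held 2 and neither held 5. The peak of mir-249 is among those 5. In the ranked lists of replicates 1 and 2 its −log10 IDR was 3.998 and 5.0, against 3.605 and 4.622 for mir-52. Why the thresholded lists lack it was not tested. Replicate 2 had the higher signal value at 8 of the 10 peaks and replicate 1 at 2 (mir-72 and mir-58.1). Signal values of different lists were not brought to a common scale, so the ranks are the safer comparison.

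Just under the threshold were mir-4930 (−log10 global IDR 1.94), mir-1823 (1.76), mir-1829.2 (1.74), lin-4 (1.55) and mir-71 (1.55), against 2.02 for mir-86 and mir-8211 just above it. The peak of lin-4, the first microRNA found, lay 332 bp upstream of it inside its host gene F59G1.4, with a signal value of 54.9 and replicate values of 30.6 (rank 6226) and 32.6 (rank 2888). The summit of the lin-4 peak was also inside F59G1.12, a gene of class ncRNA on the opposite strand. The peak of mir-4930 had a signal value of 74.3, above that of mir-58.1.

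**Figure D3:**
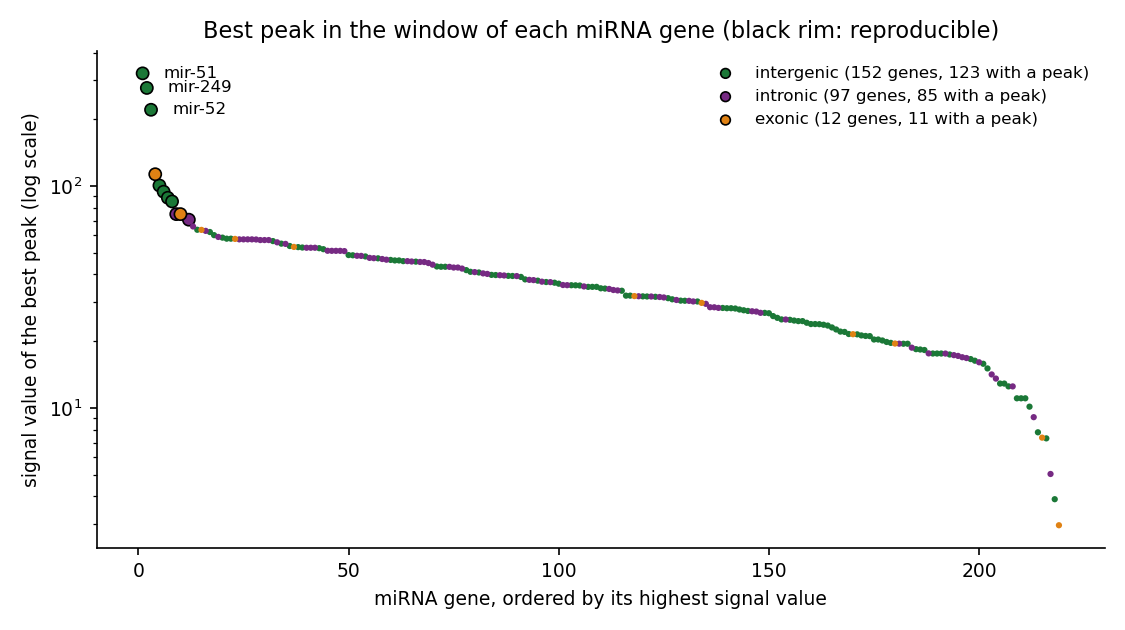
Signal value of the best peak (log scale, no unit) for the 219 of 261 microRNA genes with a ranked peak in the window, ordered by that value and coloured by position relative to protein-coding genes; black rims mark reproducible peaks. The intergenic genes mir-51 (322), mir-249 (277) and mir-52 (221) stand apart from the rest, the next being mir-354 (113).

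Most microRNA genes had a ranked peak of low reproducibility. Of the 261 genes, 42 had no ranked peak in the window and 219 (83.9%) had one, through 194 distinct peaks, with a median signal value of 34.7 and a median −log10 global IDR of 0.351. Over all ranked peaks the medians were 23.8 and 0.244. These sets are unlike, because each microRNA gene gives the peak with the highest signal value in its window. That choice alone raises the median signal value, and a shared peak counts once for each gene. Among all nuclear genes 67.5% had a ranked peak by the same rule, and among protein-coding genes 82.6%.

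Reproducible peaks were found at intergenic, intronic and exonic microRNA genes. Of 152 intergenic genes, 7 had a reproducible peak (4.61%, interval 1.87 to 9.26%), each with a peak of its own. Of 97 intronic genes, 2 had one (2.06%, 0.251 to 7.25%), both on the strand of the host gene; of the 30 with a host on the opposite strand only, 0 had one, which allows a share of up to 11.6%. The 12 genes that overlap an exon or the edge of a coding gene had 2 (16.7%, 2.09 to 48.4%). These intervals overlap, and the counts are too small to tell the classes apart. By chromosome, 2 of 33 genes were called on I, 2 of 49 on II, 3 of 27 on III (through 2 peaks), 3 of 50 on IV, 0 of 28 on V and 1 of 74 on X, against 4.21% of microRNA genes and 3.51% of all nuclear genes. With counts this small the chromosomes cannot be ranked.

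**Figure D4:**
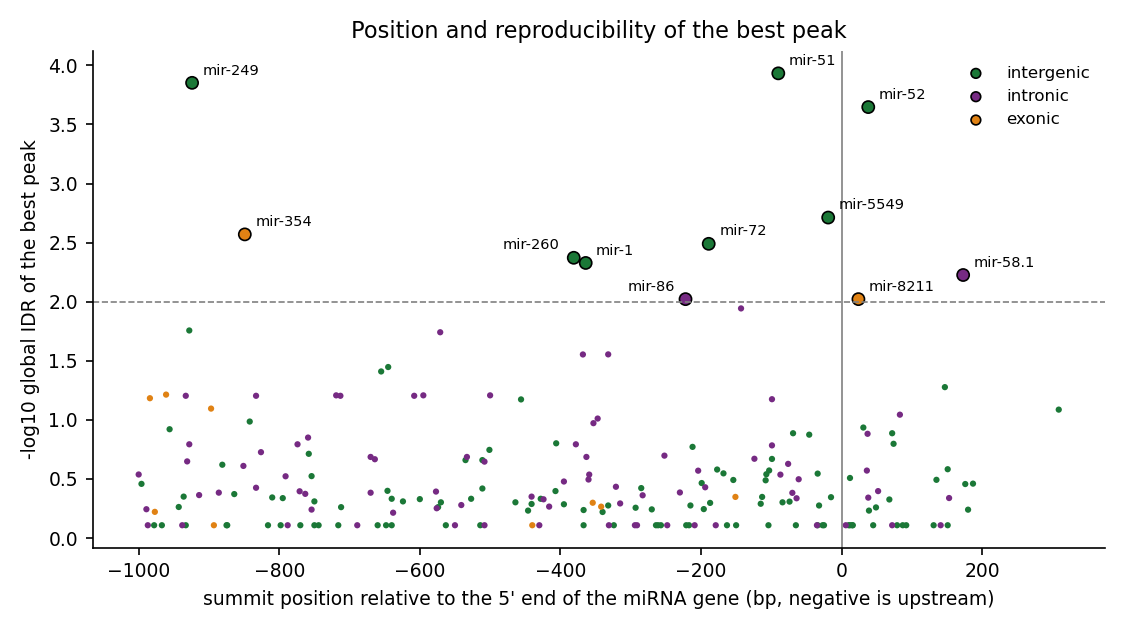
Position of the best summit relative to the 5′ end of the microRNA gene (horizontal axis, bp) against its −log10 global IDR (vertical axis) for 219 genes; the dashed line marks the threshold of 2. Reproducible summits (black rims) lie from 924 bp upstream to just past the gene, with 8 of 11 genes having theirs upstream.

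Summits lay upstream for 8 of the 11 called genes, at a median of 293 bp, inside for mir-52 and mir-8211, and past the 3′ end for mir-58.1. Over all 219 genes with a ranked peak, 183 had the best summit upstream, 22 inside and 14 downstream, with a median upstream distance of 441 bp. The window itself is mostly upstream sequence. The starts of primary microRNA transcripts are mostly not annotated, so a summit upstream of a hairpin was not placed relative to a promoter.

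What the 10 peaks had beside them was counted next. None was within 100 bp of a tRNA, snoRNA or snRNA gene, classes that had 198, 53 and 7 of the 1198 other reproducible peaks. A gene of class ncRNA lay within 100 bp of 5 of the 10, against 210 of the 1198 (17.5%). The promoter of a coding gene, taken as 1000 bp upstream to 500 bp downstream of a transcript start, held 2. CCACCC was within 50 bp of the summit in 1 of 10 and in 41 of 1198 (3.42%), and CCGCCC in 1 of 10 and in 94 of 1198 (7.85%). With 10 peaks these counts carry no comparison of their own.

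**Figure D5:**
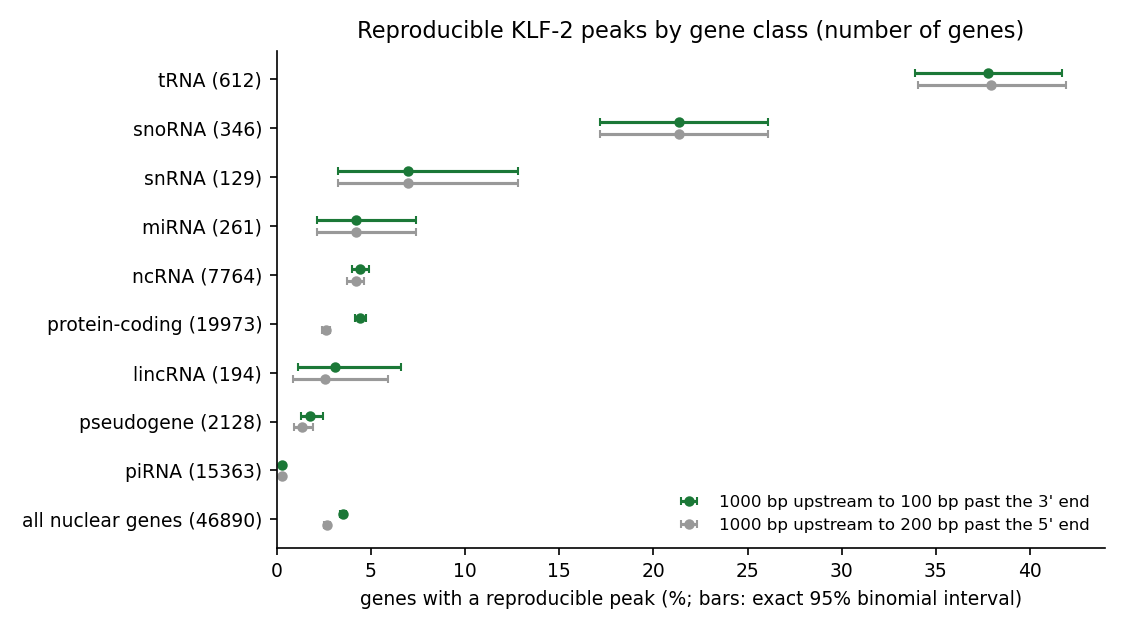
Percentage of genes with a reproducible peak by gene class (horizontal axis; bars are exact 95% binomial intervals), for the window used throughout (green) and for one that ends 200 bp past the 5′ end (grey). miRNA genes lie at 4.21% in both, next to genes of class ncRNA, while tRNA genes lie at 37.7% and 37.9%.

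MicroRNA genes had a lower share than tRNA and snoRNA genes. The same window called 37.7% of 612 tRNA genes and 21.4% of 346 snoRNA genes, whose intervals (33.9 to 41.7% and 17.2 to 26.1%) lie above that of microRNA genes, and 4.43% of 7764 genes of class ncRNA. Long genes have long windows, so the shares were also taken from 1000 bp upstream to 200 bp past the 5′ end. There microRNA genes stayed at 11 of 261, protein-coding genes fell from 4.44% to 2.60% and all nuclear genes stood at 2.67%. Of the 46890 nuclear genes, 15363 are piRNA genes. In both windows 0.299% of these were called, which lowers the share of all nuclear genes.

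Known groups of microRNAs were looked at by list, and each count is to be read against the 3.51% of all nuclear genes and 4.21% of microRNA genes that were called. At those shares a list of this length would hold few or no called genes, so a count of 0 does not show absence of KLF-2. In the mir-35 family, which is needed in embryos and whose 8 members share the seed CACCGGG, 0 of 8 were called, and the 8 genes rest on 3 distinct peaks. mir-35 to mir-38 were scored by a peak of signal value 57.6 (summit at 11537000) and mir-39 to mir-41 by one of 52.8 (summit at 11537589). Both summits lay upstream of mir-35, the first gene of the cluster, which starts at 11537608. The higher peak was outside the windows of mir-39 to mir-41. mir-42 had a peak of 35.2. The −log10 global IDR was 1.20 to 1.21 for the cluster and 0.332 for mir-42. Of 9 genes in a list named heterochronic, 0 were called. It holds lin-4 and let-7, which time larval stages, but a part in larval timing was not checked for each of its genes. Among them mir-241 had the highest signal value (62.2), let-7 had 29.8, and mir-48 and mir-793 had no ranked peak. Of 6 genes related to mir-58, mir-58.1 was called; mir-80 had 52.0, mir-81 had 45.8, mir-82 had 37.7 and mir-2209.1 had 20.4, and mir-58.2 had no ranked peak. Of 6 genes known from neurons and muscle, mir-1 was called, and lsy-6, which sets the left-right difference of a taste neuron, had 19.7 and mir-124, a microRNA of neurons, 39.4. Among 59 other genes, most of them conserved, 3 were called (mir-72, mir-86 and mir-249).

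The proteins that make and use microRNAs were scored by the same rule. Of 26 genes 1 was called, alg-5, which encodes an Argonaute of germ cells (signal value 116, −log10 global IDR 2.95, 821 bp upstream on chromosome I). The nearest below the threshold were lin-41, a target of let-7, with a −log10 global IDR of 1.96, and dcs-1, a decapping scavenger gene, with 1.80. drsh-1, which encodes the nuclear enzyme Drosha, had 0.903, and dcr-1, which encodes Dicer, had 0.263. alg-1 and alg-2, the main Argonautes of microRNAs, had 0.627 and 0.799. The summits of drsh-1 and dcs-1 lay 451 and 135 bp upstream. Those of lin-41, dcr-1, alg-1 and alg-2 lay inside the gene, 1136, 5696, 5082 and 5751 bp past its 5′ end. pash-1, the partner of Drosha, and paxt-1 had no ranked peak. The share of 1 in 26 is near the 3.51% of all nuclear genes.

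The count of microRNA genes moved with the call rule, and so did the background. With 500 bp upstream 9 genes were called (3.02% of all nuclear genes), with 2000 bp 15 (4.32%) and with 100 bp 5 (2.13%). The longest reach added mir-59, mir-2215, mir-71 and mir-235, and the shortest lost mir-249, mir-72, mir-260, mir-1, mir-354 and mir-86. At a −log10 global IDR of 1.3 the count was 18 (6.71%), and at 3 it was 3 (1.25%), namely mir-51, mir-249 and mir-52. Taking any peak of the window past the threshold gave 11 (3.55%), and counting overlap in place of the summit gave 13 (3.85%). The other ranked list of both replicates gave 10 (3.46%), the conservative list 10 (3.49%) and the other thresholded list 9 (3.44%). The single-replicate thresholded lists gave 5 without replicate 1 (1.83%) and 3 without replicate 2 (1.68%).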

How the data were processed

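The files hold peaks, not reads. Per the notes deposited with each sample, lists are in ce11, the ranked lists derive from the alignments and 1 further file, and the thresholded lists from 1 more. The sources used here name no peak caller, aligner, version or depth. The signal of a peak and its −log10 IDR are as the authors deposited them. The deposited score is the IDR on a capped scale. Genes came from Ensembl release 115 and sequence and symbols from NCBI's WBcel235, whose coordinates are those of ce11. Replicate values were taken from each replicate's own ranked list at the component peaks of the series-level list. A microRNA gene was intronic when it lay within a protein-coding gene and touched no coding-gene exon. With 1 group no test between conditions exists. Intervals are exact 95% binomial intervals (scipy 1.17.1) that cover counting of genes only. The members and lists were chosen with earlier results of these data known. Named were all called genes, the 5 nearest below the threshold by IDR, and the best member of each list; further list members were named after their values were seen. Of the list entries, 4 matched no gene. The scoring was tested on simulated data with peaks planted at the window's edges. Alternatives to window, threshold, list and replicate are in the closing section.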

Additional observations from a re-analysis of the deposited data

How the results depend on the processing

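Without single replicates, 3 to 5 microRNA genes had a thresholded peak, through 3 to 4 distinct peaks, of which 2 to 3 genes were intergenic and 0 to 1 intronic; over all nuclear genes 790 to 860 did. Of the 11 called genes, mir-51 and mir-52 were called under all 13 alternatives tried, and mir-249 under 7 of them and in none of the thresholded lists. A reach of 100 bp upstream left 5 microRNA genes (5 peaks, 3 intergenic, 1 intronic, 1000 of all genes, 0 of the pathway). A threshold of 1.3 gave 18 genes (17 peaks, 6 intronic, 3147 of all genes or 6.71%, 3 of the pathway), and all 11 were among them. A threshold of 3 gave 3 genes (3 peaks, 3 intergenic, 0 intronic, 586 of all genes, 0 of the pathway). Intronic genes numbered 1 with the other ranked list and with the other thresholded list, both without mir-58.1, and 4 when any overlap counted. With 500 bp upstream 0 pathway genes were called, and with 2000 bp 2. Under all other settings the counts stayed within 1.5 times, with 9 to 15 microRNA genes. The window to 200 bp past the 5′ end was chosen after seeing the data. Read depth is unknown, and 10 peaks limit every comparison among them.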
